A study of Homo sapiens with 24 samples.

Results

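The genes of secreted chemokines and cytokines were examined in PANC-1 cells, which come from a ductal carcinoma of the human pancreas, by the peaks of 3 histone modifications around their transcription start sites (TSSs). The 36 genes, 16 of chemokines and 20 of cytokines, were chosen by name from 20136 protein-coding genes. Of the 36, 20 carried H3K4me3 in every list, 5 of them together with H3K27me3 in at least 4 lists, and 8 others carried H3K27me3 with H3K4me3 in no more than 1 list. H3K27ac was found in every list at 3 genes, *CCL20*, *IL23A* and *CSF1*, of which 1 (*CCL20*) had at least 200 bp in each. It covered more base pairs in both siControl+TGFβ lists than in both siControl lists at 10 genes, among them *CXCL8*, *IL11*, *LIF* and *CSF2*. These 10 were 27.8% of the 36 genes, against 35.5% of all protein-coding genes.

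Chemokines direct the migration of leukocytes through receptors coupled to G proteins, and CXC chemokines such as CXCL1 and CXCL8 attract neutrophils through CXCR1 and CXCR2. Cytokines of the IL-1, IL-6 and colony-stimulating factor groups act on immune, stromal and tumor cells through their own receptors, and many of these genes are classical targets of NF-κB and AP-1. Active promoters carry H3K4me3, active promoters and enhancers carry H3K27ac, and Polycomb-repressed chromatin carries H3K27me3. PHF13 is a chromatin protein that reads H3K4me3, and TGFβ induces epithelial-to-mesenchymal transition in this line.

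The 3 groups were cells with control siRNA (siControl), cells with control siRNA and TGFβ (siControl+TGFβ), and cells with siRNA against PHF13 and TGFβ (siPHF13+TGFβ). All 3 had been transfected with an siRNA, and TGFβ was added at 10 ng/ml for 48 h. Each group had 2 libraries per modification, giving 18 peak lists, and no library of siPHF13 cells without TGFβ was analysed here. An siRNA acts on the transcript, so peaks at *PHF13* do not measure its depletion. H3K4me3 covered 2637 and 3010 bp there in siControl against 3018 and 3084 bp in siControl+TGFβ, with 2205 and 3018 bp in siPHF13+TGFβ lists. Peak names inside the lists labelled siPHF13+TGFβ read NCT, the study's abbreviation for siControl with TGFβ, and those inside the siControl+TGFβ lists read 3AT. The groups used here are those of the labels. Had the labels of both TGFβ groups been exchanged, each direction for depletion would be opposite, and the TGFβ comparison would be of siPHF13+TGFβ cells.

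The value for a gene was the number of base pairs covered by peaks within 5 kb on either side of any of its TSSs. This window was 10001 to 33176 bp long, with a median of 11290 bp. It was compared between groups as overlapping or not, that is, whether both lists of one group lay above both of the other. An exact two-sided permutation test of 2 against 2 libraries cannot go below p = 0.33, which each non-overlapping gene had, so no difference below reached significance. Nothing in the labels says that replicates came from separate cultures, so such p-values measure only the spread between these libraries. Each pair of values is replicates 1 and 2 of a group, and 3 pairs without group names follow the order siControl, siControl+TGFβ and siPHF13+TGFβ. The depth is unknown, and a value of 0 bp means that no peak was listed, not that the modification was absent.

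The lists differed in length within groups. For H3K27ac, siControl lists held 19413 and 25929 peaks, siControl+TGFβ lists 36104 and 27110, and siPHF13+TGFβ lists 6004 and 32403. The list of 6004 peaks (siPHF13+TGFβ replicate 1) stood apart from the rest and covered the window of 22.0% of all genes, against 51.3% to 64.4% in the other 5 lists. H3K4me3 lists held 27869 to 39202 peaks and H3K27me3 lists 59573 to 165717, and replicate 1 of siPHF13+TGFβ was the shortest there too. The part of list length in the differences below was not tested, and values without this replicate are given beside the results that rest on it. Of markers of other cells, 0 of 6 leukocyte genes and 0 of 2 endothelial genes had an H3K27ac peak in any list, whereas 5 of 6 epithelial genes had one. For acinar and islet cells it was 1 of 5. H3K4me3 was found in some list at 5 of the leukocyte genes, in all 6 lists at 2 of them (*CD14* and *ITGAM*), at 3 of the 5 acinar and islet genes and at neither endothelial gene.

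The promoters of the neutrophil-attracting CXC genes are shown first, because they share a run of letters, given below, and their genes differed in H3K27ac. The stretches below are the 120 bases before the RefSeq start, from 5′ to 3′ on the gene's strand. They were taken from RefSeq promoters (GRCh38.p14) and placed on GRCh37, the sequence of hg19, by their single exact match. Capitals mark the letters GGNNTTTCC, a form of the NF-κB site (κB), in these genes, TATAAA in *CXCL8*, and TGANTCA, the AP-1 site, in *IL11*. *IL11* is added because both of its siControl H3K27ac lists were at 0 bp. The stretches lie at chr4:74606166-74606285 (plus strand, *CXCL8*), chr4:74702275-74702394 (plus, *CXCL6*), chr4:74734990-74735109 (plus, *CXCL1*), chr4:74864395-74864514 (minus, *CXCL5*), chr4:74904407-74904526 (minus, *CXCL3*), chr4:74964913-74965032 (minus, *CXCL2*) and chr19:55881832-55881951 (minus, *IL11*).
CXCL8: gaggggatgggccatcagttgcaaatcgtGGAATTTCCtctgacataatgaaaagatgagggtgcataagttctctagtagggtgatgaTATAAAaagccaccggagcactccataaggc
CXCL6: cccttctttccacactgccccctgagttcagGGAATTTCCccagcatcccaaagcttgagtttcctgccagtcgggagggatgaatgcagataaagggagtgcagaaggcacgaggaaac
CXCL1: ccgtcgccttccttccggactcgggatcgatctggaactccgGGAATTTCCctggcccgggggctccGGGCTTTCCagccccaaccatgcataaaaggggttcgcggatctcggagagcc
CXCL5: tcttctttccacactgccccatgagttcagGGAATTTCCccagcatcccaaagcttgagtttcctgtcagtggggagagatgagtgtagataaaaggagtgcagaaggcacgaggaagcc
CXCL3: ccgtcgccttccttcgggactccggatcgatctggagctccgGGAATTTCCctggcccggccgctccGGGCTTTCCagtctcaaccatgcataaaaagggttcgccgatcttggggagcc
CXCL2: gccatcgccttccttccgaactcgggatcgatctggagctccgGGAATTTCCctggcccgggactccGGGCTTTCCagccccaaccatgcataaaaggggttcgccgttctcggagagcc
IL11: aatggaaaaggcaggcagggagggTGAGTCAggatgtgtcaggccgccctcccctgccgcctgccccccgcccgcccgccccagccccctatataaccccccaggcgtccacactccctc

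The same letters GGAATTTCC stood in each of the 6 CXC promoters, beginning 77 bases (*CXCL2*) to 91 bases (*CXCL8*) before the start. *CXCL1*, *CXCL2* and *CXCL3* had GGGCTTTCC as well, beginning 53 bases before the start. Over 300 bases (250 before to 50 after the start), the *CXCL1* promoter was 82.5% identical to that of *CXCL3* and 72.1% to that of *CXCL2*, and *CXCL6* was 83.1% identical to *CXCL5*. *CXCL1*, *CXCL2* and *CXCL3* were 48.6% to 52.6% identical to *CXCL5* and *CXCL6*. *CXCL8* was 42.6% to 44.9% identical to the other 5. No stretch of 50 bases in these 6 promoters occurred more than once in the cluster, with 0 of 251 repeated in each. A RefSeq promoter was found for 26 of the 36 genes. Searched on both strands, GGNNTTTCC occurred in 11 of the 26 (42.3%) and in 6.26% of the promoters of 27305 gene symbols. Among the 11 were the 6 CXC promoters above, some of them closely related, so these are not separate occurrences. TGANTCA, searched on both strands, occurred in 7 of the 26 (26.9%) and in 7.76% of all, and TATAAA on the gene's strand in 6 (23.1%) and in 7.71%. *CXCL8* was among the 7, with TGACTCA beginning 137 bases before the start, outside the stretch printed above. Letters in a promoter do not show that a factor was bound there.

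**Figure D1:**
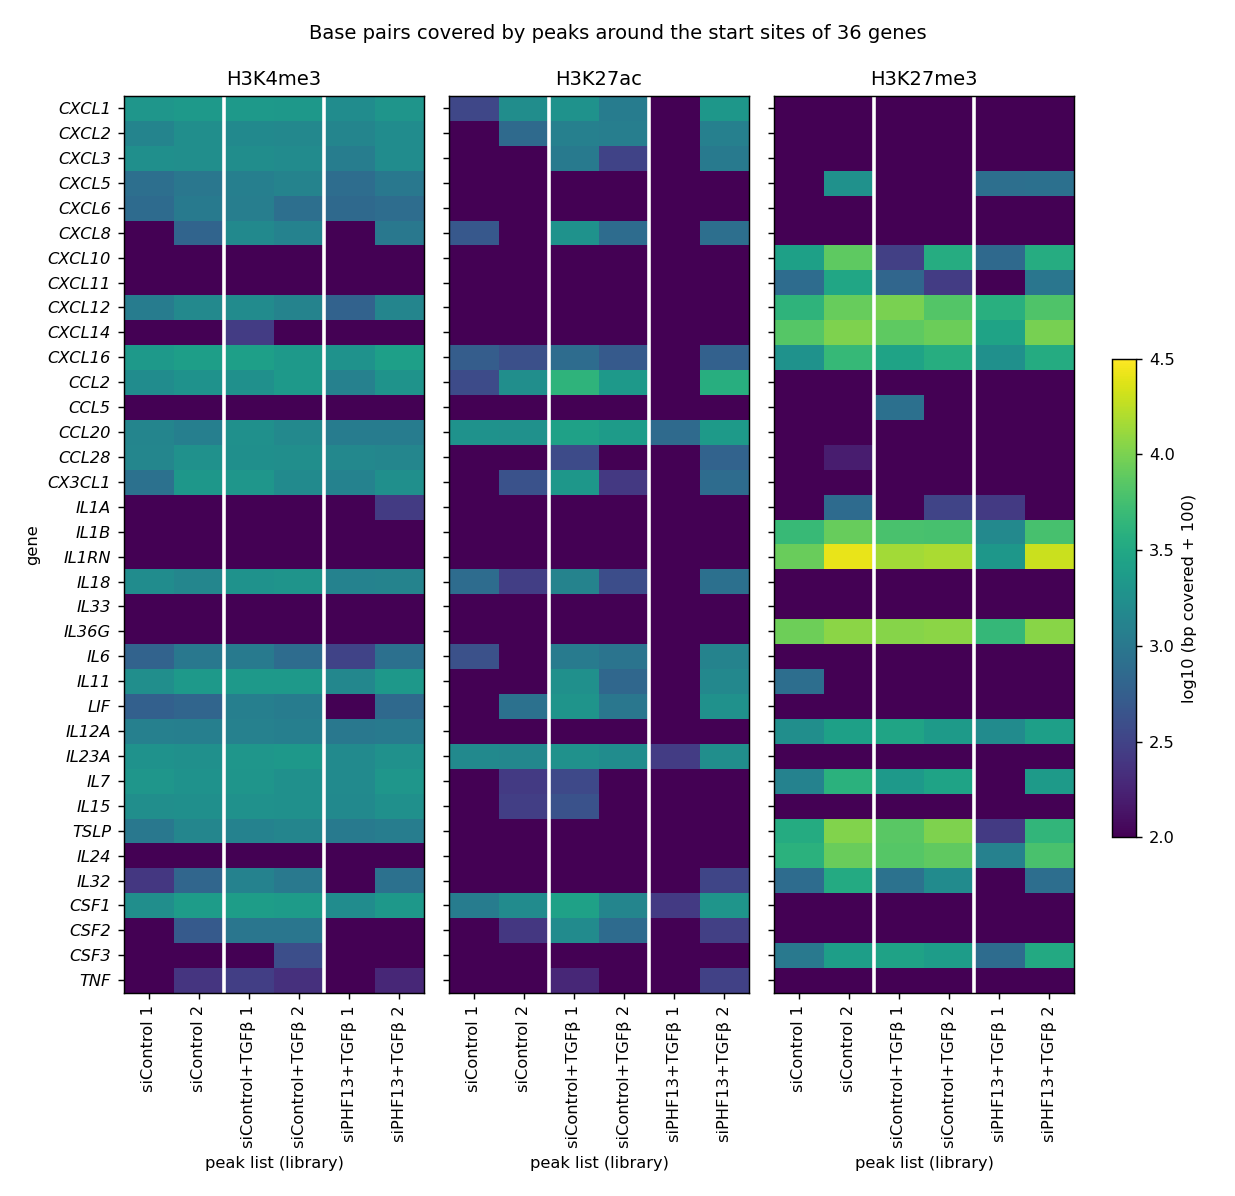
Base pairs covered by peaks in the windows of the 36 genes (rows), in each of the 18 lists (columns; replicates 1 and 2 of each group, with white lines between groups), as log10 of bp + 100. Among the 14 rows with H3K27me3 in at least 4 lists, 8 have H3K4me3 in at most 1 list and 5 have it in all 6, and H3K27ac of siPHF13+TGFβ replicate 1 is above 0 bp at 3 genes.

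Chromatin at the 36 genes was described first, without regard to treatment. H3K4me3 was present in all 6 lists at 20 genes (55.6%), against 73.4% of all protein-coding genes, and H3K27ac at 3 genes (8.33%), against 21.8%. When at least 200 bp had to be covered, H3K27ac in all 6 lists was left at *CCL20* alone, against 16.8% of all genes, since *IL23A* and *CSF1* had less in siPHF13+TGFβ replicate 1. H3K27me3 was present in all 6 lists at 11 genes (30.6%), against 23.3%. With peaks of a −log10 q of at least 3 it was present in all 6 at 0 of the 36 genes and at 0.521% of all genes, so the H3K27me3 groups here rest on weaker peaks. The 8 genes with H3K27me3 in at least 4 lists and H3K4me3 in at most 1 were *CXCL10*, *CXCL11*, *CXCL14*, *IL1B*, *IL1RN*, *IL36G*, *IL24* and *CSF3* (22.2%, against 10.6% of all genes). None of these 8 had an H3K27ac peak in any list. *CXCL12*, *CXCL16*, *IL12A*, *IL7* and *TSLP* carried H3K4me3 in all 6 lists together with H3K27me3 in at least 4 (13.9%, against 22.2%). *IL33*, an alarmin of the IL-1 family, was the one gene of the 36 without a peak of any modification in any list. *CCL5* and *IL1A* had neither H3K27ac in any list nor H3K4me3 in more than 1.

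In siControl cells, 7 genes had H3K4me3 and H3K27ac in both lists, namely *CXCL1*, *CXCL16*, *CCL2*, *CCL20*, *IL18*, *IL23A* and *CSF1*. In siControl+TGFβ cells it was 15 genes, the same 7 with *CXCL2*, *CXCL3*, *CXCL8*, *CX3CL1*, *IL6*, *IL11*, *LIF* and *CSF2*. In siPHF13+TGFβ cells it was 3, namely *CCL20*, *IL23A* and *CSF1*. As shares these were 19.4%, 41.7% and 8.33%, and over all protein-coding genes they were 50.6%, 58.4% and 21.9%. The last count rests on the list of 6004 H3K27ac peaks, which had a peak at 3 of the 36 genes, whereas replicate 2 of the same group had one at 18.

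For H3K27ac under TGFβ, 10 of the 36 genes (27.8%) were higher in both siControl+TGFβ lists, and 0 were lower. Of all protein-coding genes 35.5% were higher and 0.0497% lower, so the 36 genes were not called more often than genes at large. A gene without a peak in any of the lists compared cannot be called, and 19 of the 36 and 13078 of all 20136 genes had one. With peaks of a −log10 q of at least 3, 8 genes were higher, against 34.4%, and *CXCL3* and *LIF* were no longer among them. The median difference was 46 bp over the 36 genes and 264.2 bp over all genes. The 10 genes comprised 3 CXC chemokines, the CC chemokines *CCL2* and *CCL20*, all 3 IL-6 family members, *IL23A* and *CSF2*.

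Among CXC chemokines, H3K27ac at *CXCL8* (interleukin-8) covered 387 and 0 bp in siControl against 1771 and 657 bp in siControl+TGFβ, with 0 and 711 bp in siPHF13+TGFβ lists. The TGFβ lists were above both controls by 1020.5 bp on average. *CXCL2* had 0 and 632 bp in siControl against 1134 and 1076 bp in siControl+TGFβ, with 0 and 1124 bp in siPHF13+TGFβ. *CXCL3* was listed at 0 bp in both siControl lists, with 981 and 218 bp in siControl+TGFβ, then 0 and 956 bp in siPHF13+TGFβ. For *CXCL2* and *CXCL3*, replicate 2 of the depleted cells lay between both siControl+TGFβ values, and replicate 1 held no peak. *CXCL1*, the founding member of the growth-regulated group, had 238 and 1584 bp in siControl against 1794 and 1023 bp in siControl+TGFβ, with 0 and 2005 bp in siPHF13+TGFβ, so its groups overlapped. *CXCL5* and *CXCL6*, which share the κB letters above, had 0 bp of H3K27ac in all 6 lists, although H3K4me3 was present in all 6.

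Among CC chemokines, *CCL2*, which attracts monocytes, had 275 and 1624 bp in siControl against 4121 and 2173 bp in siControl+TGFβ, with 0 and 3578 bp in siPHF13+TGFβ. Its mean of 3147 ± 1380 bp (SD, n = 2) in siControl+TGFβ was the highest H3K27ac mean of the 36 genes. It came from 3 separate regions, of which 1 overlapped an exon of *CCL2* and the others were intergenic. *CCL20*, the ligand of CCR6, had 1772 and 1752 bp in siControl against 2569 and 2246 bp in siControl+TGFβ, with 632 and 2196 bp in siPHF13+TGFβ. It was one of 2 genes whose siPHF13+TGFβ values both lay below both siControl+TGFβ values, although replicate 2 lay close to the nearer of them. Its H3K27ac region began 1715 bp from the nearest TSS and overlapped an exon of *CCL20* (chr2:228681800-228684368).

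The IL-6 family signals through the shared receptor chain gp130. *IL11*, a known TGFβ target, was listed at 0 bp of H3K27ac in both siControl lists, and had 1705 and 591 bp in siControl+TGFβ, then 0 and 1379 bp in siPHF13+TGFβ. Its promoter carried H3K4me3 in all 6 lists, and H3K27ac was present in 3 of the 4 lists from TGFβ-treated cells. *LIF* had 0 and 760 bp in siControl against 1870 and 884 bp in siControl+TGFβ, with 0 and 1737 bp in siPHF13+TGFβ. *IL6* had 316 and 0 bp in siControl against 999 and 807 bp in siControl+TGFβ, with 0 and 1218 bp in siPHF13+TGFβ. The *IL6* region common to 4 lists overlapped an exon of the gene 3626 bp from the nearest TSS (chr7:22770485-22771534), and the promoter itself held none of it. With windows of 2.5 kb, *IL6* was no longer among the higher genes. The H3K4me3 of *IL6* lay inside the same region, 3751 bp from the RefSeq start, and covered 0 bases of the RefSeq promoter in any list.

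*CSF2* (GM-CSF), which expands granulocytes and macrophages, had 0 and 157 bp of H3K27ac in siControl against 1495 and 647 bp in siControl+TGFβ, with 0 and 195 bp in siPHF13+TGFβ. Both depleted lists lay below both siControl+TGFβ lists, with a mean difference of -973.5 bp. *IL23A* had 1447 and 1350 bp in siControl against 1744 and 1529 bp in siControl+TGFβ, with 181 and 1609 bp in siPHF13+TGFβ. Its region spanned a start shared with *PAN2* and lay 3982 bp from the RefSeq start of *IL23A*, so the value cannot be assigned to either gene. *CSF1*, the macrophage growth factor, had 1010 and 1508 bp in siControl against 2610 and 1285 bp in siControl+TGFβ, with 167 and 1923 bp in siPHF13+TGFβ, and its groups overlapped.

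**Figure D2:**
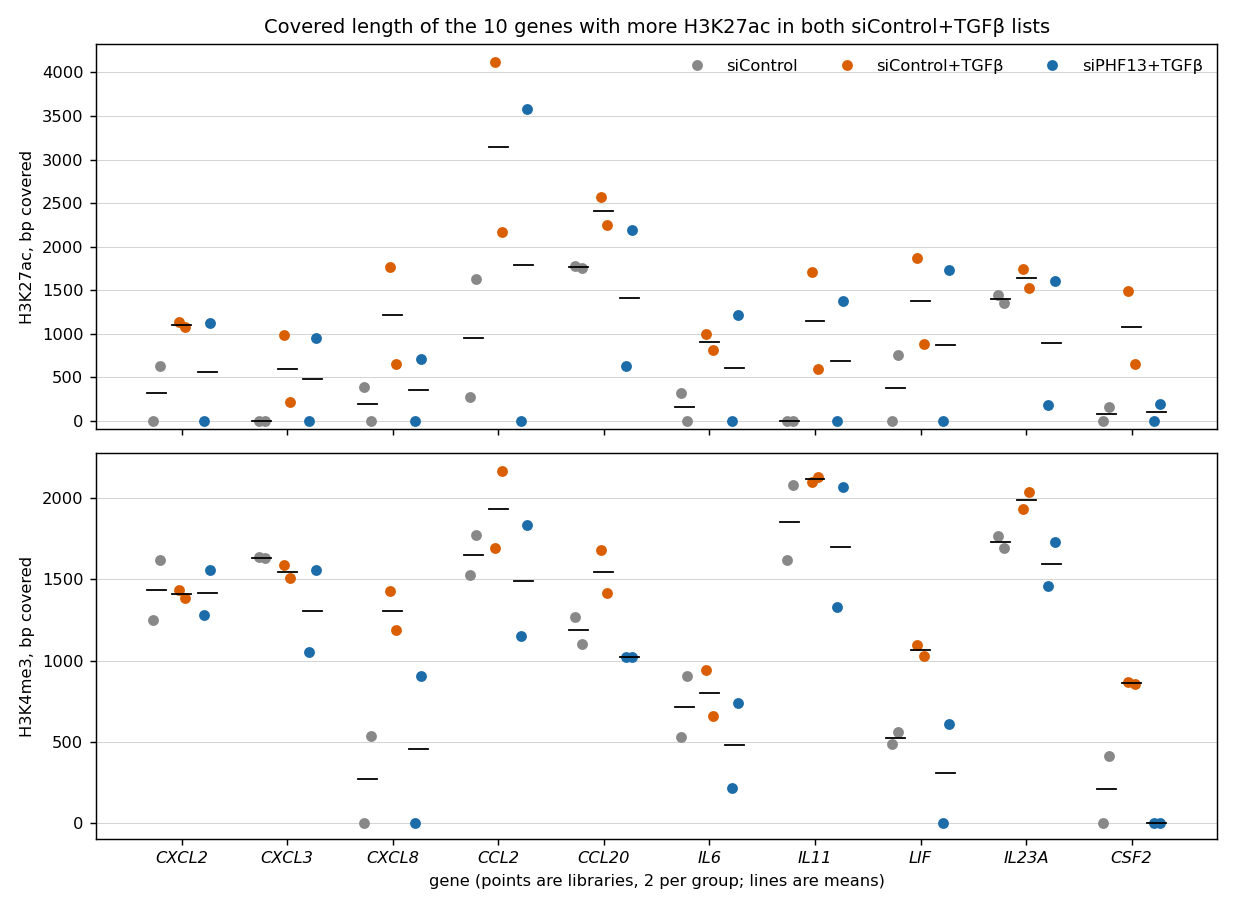
Base pairs covered by H3K27ac (top) and H3K4me3 (bottom) at the 10 genes with more H3K27ac in both siControl+TGFβ lists, with 1 point per library and lines at the mean of 2. The siPHF13+TGFβ points are split for H3K27ac, with replicate 1 at 0 bp at 8 of the 10 genes, whereas at CSF2 both H3K4me3 points of the depleted cells are at 0 bp.

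Because longer lists cover more, each gene was also placed by the percent of all protein-coding genes with fewer base pairs covered in the same list, an alternative chosen after seeing the data. By this measure 5 of the 36 genes (*CXCL3*, *CCL2*, *IL11*, *LIF* and *CSF2*) were higher in both siControl+TGFβ lists for H3K27ac, against 11.1% of all genes. The measure does not remove list length at genes with 0 bp, which exceed 0% of genes until a peak is listed. Of the 5, all but *CCL2* had 0 bp in a siControl list. *CCL2* exceeded 53.6% and 87.8% of genes in siControl and 97.6% and 93.6% in siControl+TGFβ. *IL11* exceeded 0% in both siControl lists and 71.6% and 50.7% in siControl+TGFβ. *CSF2* exceeded 0% and 41.4%, then 63.3% and 52.1%, and 0% and 37.4% in siPHF13+TGFβ. When each H3K27ac list was cut to its 6004 strongest peaks, *IL23A* alone of the 36 remained higher under TGFβ, against 14.2% of all genes.

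For H3K4me3 under TGFβ, 10 genes (27.8%) were higher in both lists and 1 (*CXCL3*) lower, against 36.7% and 1.58% of all protein-coding genes. The higher genes were *CXCL5*, *CXCL8*, *CCL20*, *IL18*, *IL11*, *LIF*, *IL23A*, *IL15*, *IL32* and *CSF2*. *CXCL8* had 0 and 535 bp in siControl against 1428 and 1186 bp in siControl+TGFβ, with 0 and 905 bp in siPHF13+TGFβ. *LIF* had 484 and 558 bp, then 1096 and 1030 bp, and 0 and 608 bp. *CSF2* had 0 and 410 bp, then 866 and 855 bp, and was listed at 0 bp in both siPHF13+TGFβ lists. At these 3 genes the peak was absent or narrow in siControl cells. *IL32*, a proinflammatory interleukin, had 156 and 571 bp, then 1185 and 923 bp, and 0 and 747 bp. *CXCL8*, *LIF*, *IL32* and *CSF2* were also the 4 genes higher for H3K4me3 by the percent of genes below, against 10.9% of all genes. By that measure 9 genes were lower, against 15% of all genes. They were *CXCL1*, *CXCL2*, *CXCL3*, *CXCL6*, *CXCL16*, *IL6*, *IL12A*, *IL7* and *IL15*. *IL15*, higher by base pairs, was thus lower by the percent of genes below.

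At the other 6 higher genes H3K4me3 was already present in both siControl lists, over 722 bp or more, and the mean differences were smaller. At *CCL20* and *IL23A* it lay away from the RefSeq promoter, of which 0 bases were covered in any list. The *CCL20* region began 1475 bp from the nearest TSS, and the *IL23A* region lay at the start shared with *PAN2*. *CXCL5* had 722 and 881 bp in siControl against 1090 and 1201 bp in siControl+TGFβ, with 676 and 903 bp in siPHF13+TGFβ. *CCL20* had 1267 and 1105 bp, then 1680 and 1416 bp, and 1019 and 1022 bp. *IL18*, an activator of interferon-γ production, had 1542 and 1320 bp, then 1779 and 1856 bp, and 1192 and 1225 bp. At these 3 genes, as at all 10 higher genes, both siControl+TGFβ values lay above the siControl and the depleted values. *IL11* had 1622 and 2086 bp, then 2102 and 2133 bp, and 1333 and 2072 bp. *IL23A* had 1770 and 1696 bp, then 1938 and 2039 bp, and 1458 and 1731 bp. *IL15* differed by 80 bp on average, with 1631 and 1663 bp in siControl and 1751 and 1703 bp in siControl+TGFβ.

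For H3K4me3 under depletion, 17 genes (47.2%) were lower in both siPHF13+TGFβ lists and 0 higher, against 48.1% and 0.209% of all protein-coding genes. The share was thus near that of genes at large. The 17 were *CXCL1*, *CXCL5*, *CXCL6*, *CXCL8*, *CCL20*, *CCL28*, *IL18*, *IL11*, *LIF*, *IL12A*, *IL23A*, *IL15*, *TSLP*, *IL32*, *CSF1*, *CSF2* and *TNF*. The siControl+TGFβ lists are shared with the TGFβ comparison. Both higher there and lower here were 10 of the 36 genes (27.8%), against 30.2% of all protein-coding genes. The median difference was -225.5 bp over the 36 genes and -231 bp over all genes. By the percent of genes below, 8 genes were lower and 3 higher (*CXCL2*, *IL7* and *IL15*), against 11.5% and 17.7% of all genes. Without siPHF13+TGFβ replicate 1, 17 genes were lower and 3 higher (*CXCL2*, *IL1A* and *IL7*), against 49.1% and 8.14% of all genes.

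Of the lower genes whose H3K4me3 is not given above, *CXCL1* had 2173 and 2033 bp in siControl+TGFβ against 1545 and 1924 bp in siPHF13+TGFβ lists. *CXCL6* had 1079 and 722 bp against 622 and 674 bp. *CCL28*, a mucosal chemokine, had 1644 and 1624 bp against 1372 and 1292 bp. *IL12A*, a subunit of IL-12 and IL-35, had 1148 and 1088 bp against 894 and 965 bp. *TSLP*, an epithelial cytokine of type 2 immunity, had 1182 and 1271 bp against 983 and 1054 bp, and *CSF1* 2364 and 2253 bp against 1529 and 2076 bp. The H3K4me3 regions of *CCL28* and *TSLP* lay 14844 and 2630 bp from the RefSeq starts, at other TSSs of these genes. Of their RefSeq promoters 0 bases were covered by H3K4me3 in any list. In the window of *TNF*, H3K4me3 covered at most 189 bp, from a region that overlapped an exon of *LTB* 4812 bp from the nearest *TNF* start.

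For H3K27ac under depletion, 2 genes (*CCL20* and *CSF2*; 5.56%) were lower and 0 higher, against 6.35% and 0.0149% of all protein-coding genes. Without siPHF13+TGFβ replicate 1, 5 genes (*CXCL1*, *CCL28*, *IL6*, *IL32* and *TNF*) were higher and the same 2 lower, against 19.5% and 6.35%. Without siPHF13+TGFβ replicate 2, 15 genes were lower, against 58.7%, and without siControl+TGFβ replicate 2 it was 15 as well, against 45.4%. Of the 10 genes higher under TGFβ for H3K27ac, replicate 2 of siPHF13+TGFβ lay above both siControl values at each gene, and replicate 1 was at 0 bp at 8.

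**Figure D3:**
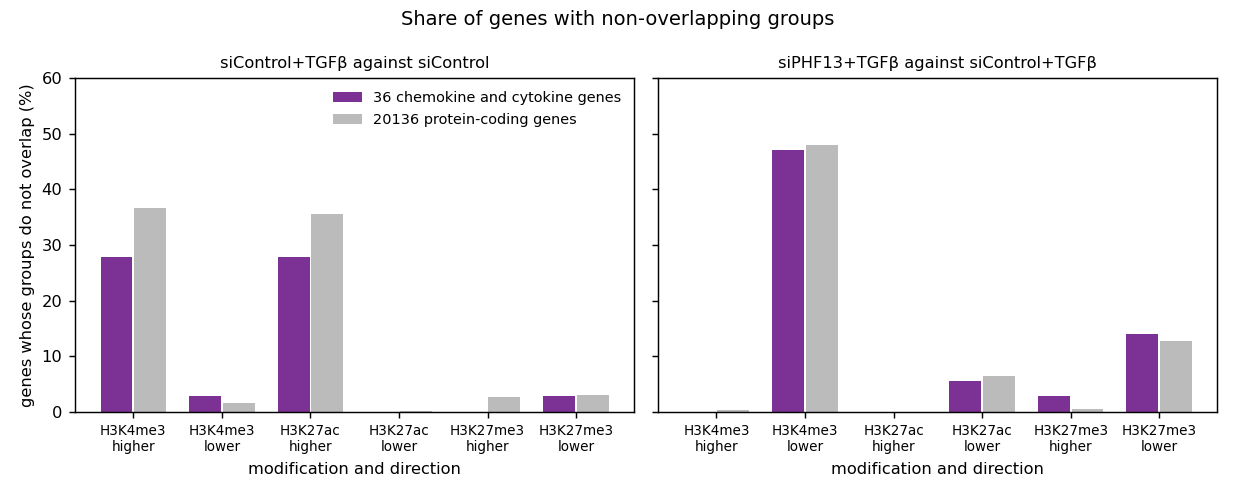
Percent of the 36 genes (purple) and of 20136 protein-coding genes (grey) whose groups did not overlap, by modification and direction, for siControl+TGFβ against siControl (left) and siPHF13+TGFβ against siControl+TGFβ (right). The largest shares, 47.2% and 48.1%, are for lower H3K4me3 after depletion.

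For H3K27me3 under TGFβ, 1 gene (*CXCL11*; 2.78%) was lower and 0 higher, against 3.06% and 2.56% of all protein-coding genes. With windows of 2.5 kb and with the gene's 5′ end only, *CXCL11* was no longer called and *IL32* was the lower gene. Under depletion 1 gene was higher (*CXCL5*; 2.78%) and 5 lower (*CXCL12*, *IL1B*, *TSLP*, *IL24* and *IL32*; 13.9%), against 0.477% and 12.8%. The share of lower genes was near the background, and the higher share rests on 1 gene. Without siPHF13+TGFβ replicate 1, which had the fewest H3K27me3 peaks, 6 genes were higher (*CXCL5*, *CXCL10*, *CXCL11*, *CXCL14*, *IL1RN* and *CSF3*) and the same 5 lower, against 13.4% and 13% of all genes. With peaks of a −log10 q of at least 3, 0 of the 36 genes were called for H3K27me3 in either comparison, and of all genes 1.13% were lower under depletion.

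*CXCL10* and *CXCL11*, ligands of CXCR3 that interferon induces, lie near each other on chromosome 4, outside the cluster described below. At *CXCL10*, H3K27me3 covered 2527 and 7499 bp in siControl against 196 and 3444 bp in siControl+TGFβ, with 619 and 3470 bp in siPHF13+TGFβ lists. Replicate 1 was the lower one in each group, and the groups overlapped. *CXCL11* had 660 and 2897 bp, then 572 and 181 bp, and 0 and 861 bp. Of its RefSeq promoter 0 bases were covered by H3K27me3 in any list. The 572 bp of siControl+TGFβ replicate 1 came from a region found in that list alone. Neither gene had H3K4me3 or H3K27ac in any list.

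The IL-1 family genes *IL1B*, *IL1RN* and *IL36G*, a proinflammatory cytokine, a receptor antagonist and an epithelial cytokine, lie on chromosome 2. All had H3K27me3 in their windows in all 6 lists. The window of *IL1RN* was the largest of the 36, at 33176 bp. H3K27me3 covered its RefSeq promoter in siControl replicate 2 alone. The *IL1B* promoter had 0 bases covered in replicate 1 of siControl and of siPHF13+TGFβ, and 300 in the other lists. *IL1B* had 4777 and 8130 bp in siControl against 5902 and 5867 bp in siControl+TGFβ, with 1388 and 5853 bp in siPHF13+TGFβ. *IL1RN* had 8398 and 26142 bp, then 14218 and 15267 bp, and 1985 and 19967 bp. *IL36G* had 8792 and 11533 bp, then 11083 and 11438 bp, and 4477 and 11297 bp. In siPHF13+TGFβ replicate 2 the values of *IL1B* and *IL36G* were close to a siControl+TGFβ list, and replicate 1 was the lowest list at all 3 genes.

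*CXCL14*, a chemokine of epithelial tissues, had H3K27me3 over 26.6% of its window in siPHF13+TGFβ replicate 1 and over 100% in siControl replicate 2. It covered 6834 and 10289 bp in siControl against 7424 and 8642 bp in siControl+TGFβ, with 2736 and 9593 bp in siPHF13+TGFβ, and the window also holds a start of *SLC25A48*. *IL24*, an IL-10 family cytokine, had 3820 and 8388 bp, then 6874 and 7712 bp, and 1161 and 5901 bp. *CSF3* (G-CSF) had 926 and 2402 bp, then 2632 and 2284 bp, and 670 and 3187 bp, from a region that did not reach its nearest TSS (1662 bp away). Among these 3 genes, *IL24* was the one whose depleted lists both lay below the siControl+TGFβ lists.

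Of genes with both H3K4me3 and H3K27me3, *CXCL12*, the ligand of CXCR4, had H3K27me3 over 4126 and 8191 bp in siControl against 9828 and 6745 bp in siControl+TGFβ, with 3645 and 6425 bp in siPHF13+TGFβ. Its H3K4me3 covered 1010 and 1387 bp, then 1507 and 1206 bp, and 515 and 1286 bp. *TSLP* had H3K27me3 over 3371 and 10553 bp, then 7110 and 10350 bp, and 163 and 4368 bp. This was the largest decrease in the mean of H3K27me3 among the 36 genes under depletion, with a difference of -6464.5 bp. *IL12A* had 1611 and 2512 bp, then 2758 and 2192 bp, and 1523 and 2500 bp. *IL7*, a lymphocyte survival factor, had 1188 and 3881 bp, then 2163 and 2711 bp, and 0 and 2189 bp. *CXCL16* had 1801 and 4589 bp, then 2722 and 3548 bp, and 1683 and 3358 bp, and it was the one gene of the 36 with both H3K27ac and H3K27me3 in at least 4 lists. Its H3K27ac lay at the start of *MED11*, 4334 bp from the nearest *CXCL16* start. *IL32* had H3K27me3 over 671 and 3287 bp, then 773 and 1507 bp, and 0 and 696 bp, in regions apart from its H3K4me3.

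The neutrophil-attracting genes lie in a cluster on chromosome 4. From 20 kb before *CXCL8* to 20 kb after *CXCL2* it spanned 399 kb (chr4:74586236-74984913) with 11 protein-coding genes. H3K4me3 covered 7605 and 10054 bp of it in siControl against 10965 and 10709 bp in siControl+TGFβ, with 5928 and 9323 bp in siPHF13+TGFβ lists. H3K27ac covered 1395 and 3399 bp, then 9005 and 4819 bp, and 0 and 7970 bp. For both modifications the siControl+TGFβ lists lay above the siControl lists. The list of 6004 peaks held no H3K27ac over the entire cluster.

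The plot of the cluster shows where these peaks were. Of 11 merged H3K4me3 regions, 8 lay on a protein-coding TSS and 7 were in all 6 lists. Of 11 merged H3K27ac regions, 4 lay on a protein-coding TSS (*CXCL8*, *CXCL1*, *CXCL3* and *CXCL2*) and 0 were in all 6 lists. The widest H3K27ac region of the cluster was intergenic, between *CXCL2* and *MTHFD2L* (chr4:74974063-74976197). It covered 770 and 1025 bp in siControl against 2120 and 1476 bp in siControl+TGFβ, with 0 and 2119 bp in siPHF13+TGFβ, so both siControl+TGFβ lists were above both siControl lists. H3K4me3 was found there in 1 list, over 217 bp. The main H3K27me3 region was intergenic, between *CXCL1* and *PF4* (chr4:74807564-74811564), with 2099 and 3782 bp in siControl against 1320 and 3030 bp in siControl+TGFβ, with 0 and 3033 bp in siPHF13+TGFβ. At *CXCL5*, H3K27me3 covered 0 and 1732 bp in siControl against 0 and 0 bp in siControl+TGFβ, with 727 and 742 bp in siPHF13+TGFβ. These last 2 values came from different regions that did not overlap. Replicate 1 had its peak in an exon of *CXCL5* (chr4:74862903-74863629) and replicate 2 at the TSS (within chr4:74863631-74864612). Both peaks were weak, with a −log10 q of 1.66 and 1.37. *CXCL1*, *CXCL2*, *CXCL3*, *CXCL6* and *CXCL8* had no H3K27me3 in any list.

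**Figure D4:**
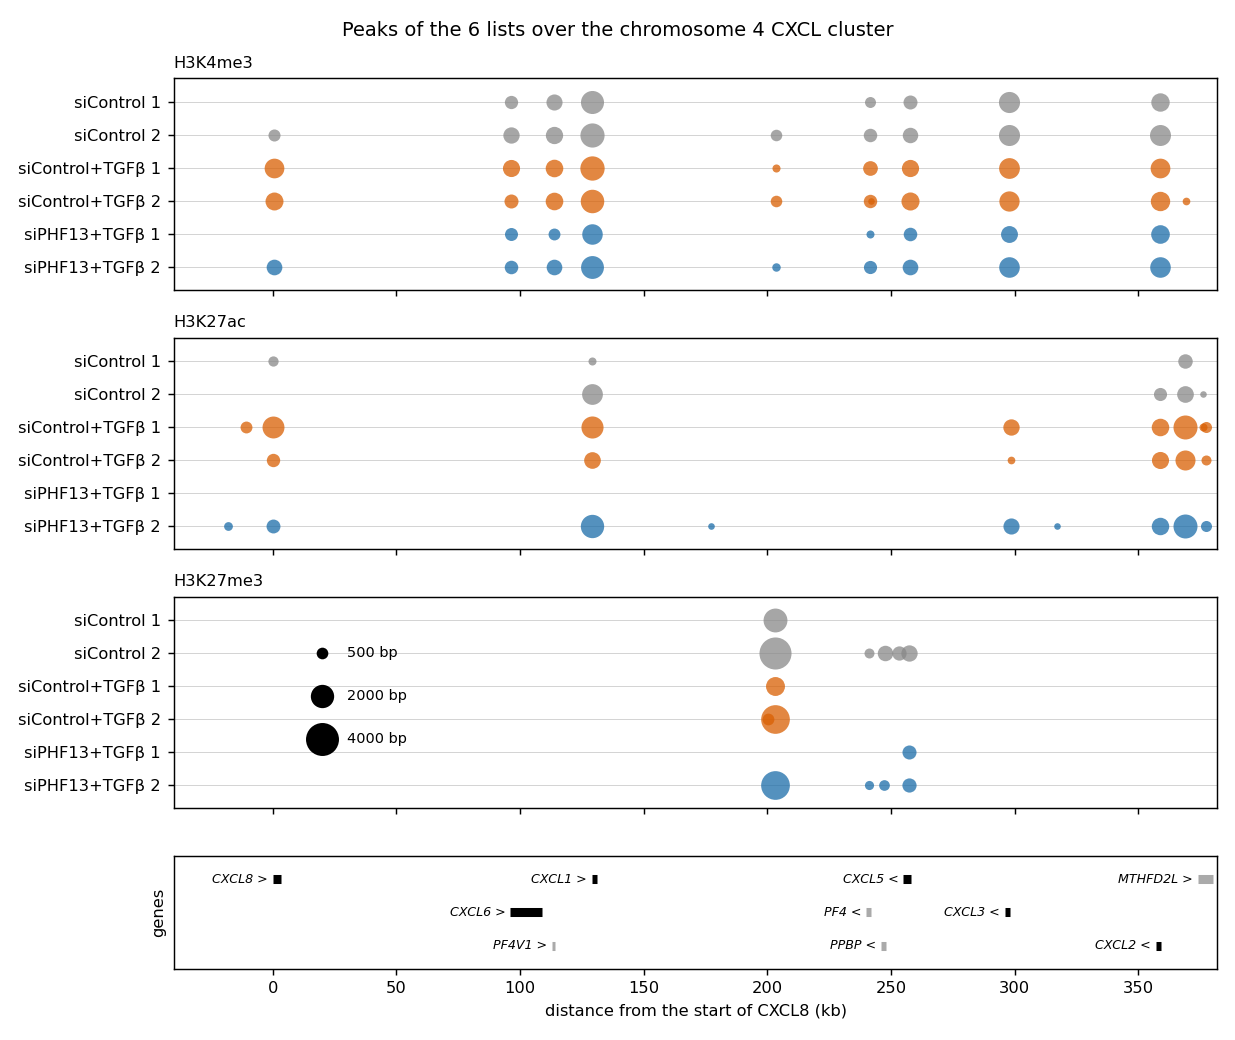
Merged peak regions over the CXCL cluster by distance from the start of CXCL8 in kb, with a row per list, circle area in proportion to the base pairs covered in that list, and genes below (black, genes described here; > plus strand, < minus strand). H3K27ac lies at CXCL8, CXCL1, CXCL3, CXCL2 and the region beyond CXCL2, and siPHF13+TGFβ replicate 1 has none.

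At the 300-base promoters themselves, H3K4me3 covered all 300 bases of *CXCL1*, *CXCL2* and *CXCL3* in each of the 6 lists. H3K27ac covered 300 bases of *CXCL8* in both siControl+TGFβ lists, 44 and 0 bases in siControl and 0 bases in both siPHF13+TGFβ lists. In siPHF13+TGFβ replicate 2 the 711 bp of H3K27ac at *CXCL8* thus lay beside the stretch printed above. *CXCL2* was covered over 0 and 300 bases in siControl against 300 and 300 in siControl+TGFβ, with 0 and 300 in siPHF13+TGFβ. *CXCL3* had 0 and 0 bases, then 300 and 0, and 0 and 300.

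The receptors and the NF-κB genes were counted alongside. Of 41 receptor genes, 6 (14.6%) were higher for H3K27ac under TGFβ and 1 (2.44%) lower under depletion, against 35.5% and 6.35% of all protein-coding genes. An H3K27ac peak in some list of the TGFβ comparison was found at 13078 of all 20136 genes and at 16 of the 41 receptor genes. For H3K4me3, 11 (26.8%) were higher under TGFβ and 13 (31.7%) lower under depletion, against 36.7% and 48.1%. *CXCR1* and *CXCR2*, the receptors of the neutrophil-attracting chemokines, and *CXCR3*, that of *CXCL10* and *CXCL11*, had no H3K4me3 or H3K27ac peak in any list. *CXCR4*, the receptor of *CXCL12*, had H3K4me3 over 1164 to 3157 bp in all 6 lists and no H3K27ac. By the mean over all 6 lists, the receptors with the most H3K27ac were *TNFRSF1A*, *CCR10*, *IL6ST* and *OSMR*. *IL6ST*, which encodes gp130, had 1577 and 1623 bp in siControl against 3059 and 2387 bp in siControl+TGFβ, with 525 and 1967 bp in siPHF13+TGFβ, so it was higher and then lower.

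Of 13 genes of NF-κB subunits and regulators, 10 (76.9%) were higher for H3K27ac under TGFβ and 2 (15.4%) lower under depletion, against 35.5% and 6.35% of all protein-coding genes. For H3K4me3 it was 6 (46.2%) and 8 (61.5%), against 36.7% and 48.1%. All 13 had H3K4me3 in every list, against 20 of the 36 genes. All 13 also had an H3K27ac peak in some list of the TGFβ comparison, as had 13078 of all 20136 genes. Genes without one cannot be called, but they are part of the base of the 35.5%. By the mean over all 6 lists, the NF-κB genes with the most H3K27ac were *NFKBIE*, *NFKBIZ*, *RELA* and *NFKBIA*. *NFKBIA*, the inhibitor IκBα, had 764 and 1546 bp in siControl against 3026 and 2066 bp in siControl+TGFβ, with 0 and 2017 bp in siPHF13+TGFβ. *NFKBIZ* had 2207 and 2482 bp, then 3591 and 3301 bp, and 201 and 3092 bp. At both genes replicate 2 of the depleted cells lay below both siControl+TGFβ lists, at *NFKBIA* narrowly.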

How the data were processed

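ChIP-seq peak lists of H3K4me3, H3K27ac and H3K27me3 from 18 libraries were used, and the 6 input samples were not analysed here. Reads were, according to the submitters' processing notes and the study's methods, trimmed (Trim Galore 0.4.1), aligned to hg19 (Bowtie2 2.4.1), freed of duplicates (Picard) and used to call peaks in each library against input (MACS2 2.2.7.1). Each peak of the deposited lists has a fold enrichment over input, which is a ratio, and a q-value as −log10. The lowest −log10 q was 1.30 in the H3K4me3 and H3K27ac lists, weaker than the cut-off stated in the study's methods for these marks, and 1.00 in the H3K27me3 lists, and all deposited peaks were used. Only the −log10 q was used here, to filter or rank peaks, besides the positions. The lists hold no read counts, so a better enriched or deeper library gives more and wider peaks, and no interval is given.

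Base pairs covered within 5 kb of every TSS of a gene (GENCODE release 44, GRCh37) were counted in Python 3.11.15 with NumPy 2.4.6, and tested on simulated data and against bedtools 2.31.1. On the 16 chromosomes with members, 0 had a peak past the GRCh37 end. Groups were compared as overlapping or not, with an exact permutation test on log2 of bp + 100. Where a symbol occurred more than once, its first entry was kept, and 26 further entries were left out. The 36 genes and the other lists were chosen with earlier results of these data known, and values per library were given for genes of the CXCL cluster, non-overlapping genes and genes with H3K27me3 in at least 4 lists. Alternatives were windows of 2.5 kb, the gene's 5′ end only, a −log10 q of at least 3, at least 200 bp for a peak to count, lists of equal length, each library left out, a replicate block and, chosen after seeing the data, the percent of genes below and crossed pairs. Promoters were searched for motifs as spelled out beside the sequences.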

Additional observations from a re-analysis of the deposited data

How the results depend on the processing

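Counts are of the 36 genes, and the percent after each is the share of all protein-coding genes under the same setting. Replicate numbers were not taken to pair the libraries. Deviations of same-numbered libraries correlated at -0.34 (H3K4me3), -0.20 (H3K27ac) and -0.02 (H3K27me3) between siControl and siControl+TGFβ, and at -0.23, -0.02 and 0.03 between the TGFβ groups, but at 0.48, 0.26 and 0.13 between siControl and siPHF13+TGFβ, which were not compared here. With the replicate block, 2 genes were lower for H3K4me3 (3.03%) and 2 for H3K27me3 (6.72%) under TGFβ, and 2 were higher (1.04%) and 8 lower (19.4%) for H3K27me3 under depletion, and the other 8 counts stayed within 1.5 times. With crossed pairs 17 were higher for H3K4me3 under TGFβ (51%). By the percent of genes below, the TGFβ counts were 4 higher (10.9%) and 9 lower (15%) for H3K4me3, 5 higher (11.1%) and 0 lower (12.5%) for H3K27ac, and 2 higher (7.06%) and 3 lower (5.37%) for H3K27me3. The depletion counts were 3 higher (17.7%) and 8 lower (11.5%) for H3K4me3, 4 lower (13.2%) for H3K27ac, and 3 higher (5.28%) for H3K27me3. With lists of equal length, H3K27ac gave 1 higher under TGFβ (14.2%) and 0 lower under depletion (6.19%), and H3K27me3 0 higher (1.04%) and 2 lower (9.53%) under depletion. With windows of 2.5 kb, H3K27me3 gave 2 higher under TGFβ (2.51%) and 3 lower under depletion (10.4%), and with the 5′ end only 1 gene was lower for H3K27ac under depletion (6.63%). At a −log10 q of at least 3, H3K27me3 gave 0 lower under TGFβ (0.293%) and 0 higher (0.0894%) and 0 lower (1.13%) under depletion. The cause of these changes was not tested.

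Leaving out each library in turn, the TGFβ counts were 10 to 22 higher and 1 to 5 lower for H3K4me3, 10 to 19 higher and 0 to 0 lower for H3K27ac, and 0 to 12 higher and 1 to 14 lower for H3K27me3. The depletion counts were 0 to 3 higher and 17 to 25 lower for H3K4me3, 0 to 5 higher and 2 to 15 lower for H3K27ac, and 1 to 6 higher and 5 to 13 lower for H3K27me3. Under TGFβ the extremes came without siControl replicate 2 (22 higher for H3K4me3, 59.3%, and 12 higher for H3K27me3, 27.8%), without siControl replicate 1 (5 lower for H3K4me3, 10.7%, and 14 lower for H3K27me3, 36%) and without siControl+TGFβ replicate 2 (19 higher for H3K27ac, 63.4%). Under depletion they came without siPHF13+TGFβ replicate 1 (3, 5 and 6 higher, against 8.14%, 19.5% and 13.4%) and without siPHF13+TGFβ replicate 2 (25, 15 and 13 lower, against 73.4%, 58.7% and 33.2%). The shares of all genes thus moved with the counts. With 1 library left in a group, groups separate more easily. The depth is unknown, and no gene's difference can reach significance with 2 libraries per group.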
